A study of Rattus norvegicus and Mus musculus with 61 samples.

Results

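Cell cycle and DNA replication genes were followed through the first days after a contusion of the parieto-occipital cortex in mouse and rat. The group was a named list of 38 genes, given by symbol and chosen with earlier results of these data known. It held 6 cyclins and kinases of the G1 phase, genes that load and start the replicative helicase, genes of DNA and nucleotide synthesis, genes of G2 and mitosis, and 3 genes of proliferating chromatin (Mki67, Top2a and Hmgb2). The mouse array held 35 of the 38 among 8251 genes with their own probe set, and the rat array held 22 among 4736 genes. Ccnb1, Bub1b and Tyms had no usable mouse probe set, and 19 members were on both arrays. Where a gene had several probe sets, the brightest on average stood for it.

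The series measured total RNA on 61 single-channel expression arrays. Injured mice were male C57BL/6 animals under isoflurane that received a moderate controlled cortical impact at 6 m/s with 1.5 mm of deformation, and their 4 mm cortex disks were taken at 4, 8, 24 or 72 h (3 arrays per time). Mouse controls were sham-operated animals at the same times (2 arrays per time) and naive animals (2 arrays), and every mouse array carried RNA pooled from 3 disks. Injured rats were male Sprague-Dawley animals under pentobarbital that received a fluid-percussion pulse of 2.5 atm. Their 7 mm disks came from 1 animal each, at 30 min (5 arrays), and at 4, 8, 24 and 72 h and 21 d (3 arrays each). Rat controls were sham-operated animals at 30 min and 4 h (4 arrays each) and at 8 h, 24 h, 72 h and 21 d (2 arrays each), and 3 naive animals. Titles of the 2 mouse sham arrays at each time carry the same number, 1, and another letter (b, c or d). Whether they came from separate pools is not stated. They were counted as 2 samples, so the p-values rest on differences among arrays that may be technical. Titles of mouse injury arrays carry the letter a at 4 h, b at 8 h and c at 24 and 72 h, and naive titles carry a. Rat injury titles of 4 h carry b and rat sham titles of 4 h carry a. Rat naive titles carry b or c, and every rat sham title carries a. What the letter stands for is not stated.

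A dividing cell commits to a new cycle when D-type cyclins, with Cdk4, and cyclin E, with Cdk2, release the E2F transcription factors from the retinoblastoma protein. In S phase the Mcm2 to Mcm7 helicase, loaded by Cdc6 and started by Cdc45, opens the DNA that polymerases copy around the Pcna clamp. Cdk1 with cyclins A and B then drives mitosis, and Aurora kinases, Plk1 and Cdc20 carry the chromosomes through it. Most neurons of adult cortex do not divide, whereas microglia, astrocytes, oligodendrocyte precursors, vessel cells and incoming blood cells can.

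Values are deposited linear array intensities, floored at 24.1 in mouse and 32.1 in rat before log2 was taken. Changes are log2 differences, injury minus sham of the same time, ± the standard error from limma, and called means an adjusted p (Benjamini-Hochberg, over all genes of the comparison) under 0.05. All mouse arrays resembled each other, with a median correlation of 0.941 to 0.961 with the others. Sham replicate 1d of 72 h had 0.943, below the other uninjured mouse arrays (0.951 to 0.961). In rat, 4 arrays stood apart: injury replicate 5 of 30 min (0.798), sham replicate 3 of 30 min (0.830), and sham replicates 3 and 4 of 4 h (0.731 and 0.610). The next lowest rat arrays were injury replicate 2 of 72 h (0.864) and all 5 arrays of 24 h (0.865 to 0.877). Rat counts are given with and without these 4 arrays. Signal also limited the members: 30 of 35 in mouse and 19 of 22 in rat passed a filter on low intensity. In mouse, 6 of the 30 (Pola1, Rrm2, Cdk1, Aurka, Aurkb and Birc5) passed only because of the bright injury arrays at 72 h, and in rat the same held for Cdk1. Member counts are therefore also given from a fit without the filter. Because each disk is mixed tissue, fewer cells of a type and less RNA per cell cannot be told apart.

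In injured mouse cortex, no member was called at 4 h or 8 h, 6 were called higher at 24 h and 14 at 72 h. At 4 h, 0 of 30 filtered members were called, beside 0.865% of all genes, and 0 of them had an unadjusted p under 0.05. At 8 h the count was also 0, beside 8.18% of all genes called (4.91% of all genes were higher), and 4 members had an unadjusted p under 0.05. These were Cdc45 (1.26 ± 0.42, adjusted p = 0.0741), Ccnd3 (0.63 ± 0.23, adjusted p = 0.105), Mcm5 (0.52 ± 0.20, adjusted p = 0.116) and Ccnd2 (-1.67 ± 0.69, adjusted p = 0.153). Ccnd2 was called at 8 h when injury 3 or sham 1c was left out, in each case as the 1 member called. At 24 h, 6 members rose: Ccnd1, Cdk2, Mcm5, Pcna, Rrm1 and Cdk1. At 72 h, 14 rose, and 10 of these had not been called at 24 h. The change of effect from 24 h to 72 h was itself called for 0 of 30 members, so these counts do not show stages. Of the 6 calls at 24 h, 0 held under all 13 alternatives. Without the filter, none of 35 members was called lower at 4, 8, 24 or 72 h, where 0.218%, 2.36%, 2.97% and 3.65% of all genes were.

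Without the filter, 6 of 35 members rose at 24 h, beside 4.71% of all genes, and 16 of 35 rose at 72 h, beside 7.48% of all genes. With the filter the shares were 6 of 30 beside 6.20%, and 14 of 30 beside 9.85%. The median change of the 35 members was -0.01 at 4 h, 0.04 at 8 h, 0.47 at 24 h and 0.92 at 72 h, on the log2 scale. The median over all 8251 genes was -0.01, -0.02, 0.00 and 0.00 at the same times. Every injury array lay above every sham array for 25 of the 35 members at 72 h, beside 18.6% of all genes, and for 17 at 24 h, beside 16.0%. The 24 h count depended on single arrays. With the filter it was 3 without injury 1, 3 without injury 2, 2 without injury 3, 2 without sham 1c and 0 without sham 1d. At 72 h it stayed between 10 and 13 when an array was left out.

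**Figure D1:**
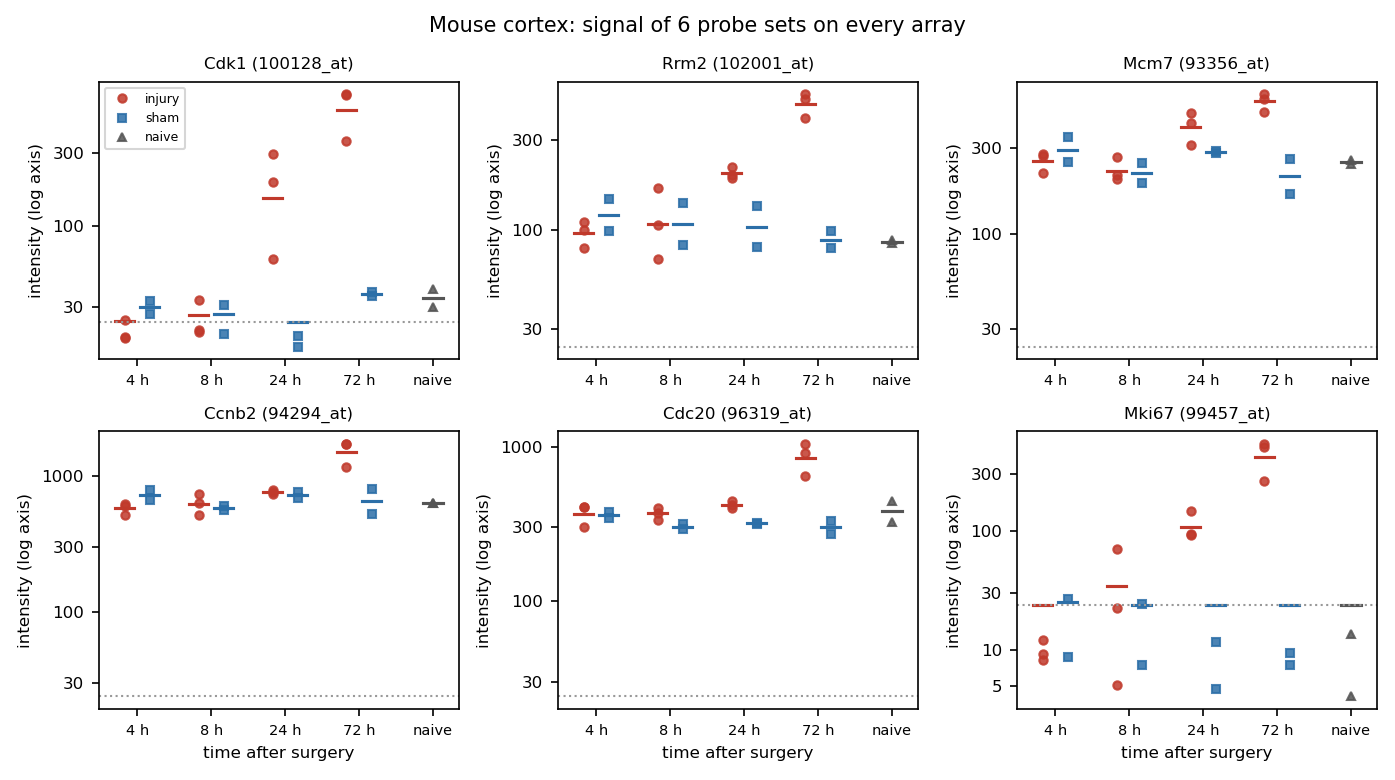
Array intensities (log axis) of 6 probe sets in mouse cortex by time, with the dimmer of the 2 for Mki67. Dots are arrays, short lines are means of the floored log2 values and the dotted line is the floor. The 3 injury arrays at 72 h stand above both sham arrays of that time for Cdk1, with 354 to 716 against 35.2 and 37.5.

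Among the G1 genes, 2 of 6 rose at 24 h, beside 6.20% of all filtered genes, and 1 rose at 72 h, beside 9.85%. Ccnd1, cyclin D1, which couples growth signals to the cycle, had 2730, 2578 and 2763 on the injury arrays at 72 h, against 1173 and 1724 on the sham arrays. Naive arrays had 1144 and 1135, so all 3 injury arrays stood above every uninjured value given here. The change was 0.92 ± 0.16 (adjusted p = 0.000518), and 0.55 ± 0.16 at 24 h (adjusted p = 0.0318). The 24 h call was lost without injury 2, injury 3, sham 1c or sham 1d (adjusted p from 0.051 to 0.305). A second, dimmer Ccnd1 probe set had a smaller difference at 72 h (0.23 ± 0.40, adjusted p = 0.836), and the mean of both missed the threshold (0.58, adjusted p = 0.0903). Cdk2, the kinase partner of cyclins E and A, was called at 24 h alone. It had 321, 290 and 308 on injury arrays at 24 h, against 174 and 128 on sham arrays, a change of 1.03 ± 0.28 (adjusted p = 0.0219). Its groups did not overlap, but a second probe set near the floor had 0.58 ± 0.63, and the call was lost without injury 1, injury 3 or sham 1d (adjusted p 0.0612, 0.051 and 0.254). At 72 h its change was 0.45, with a 95% interval from -0.14 to 1.04.

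The other G1 members were bright or variable and not called. Cdk4, the partner of D-type cyclins, had 0.50 ± 0.20 at 72 h (adjusted p = 0.112), with every injury array above both sham arrays. Ccnd3, cyclin D3, had 0.60 ± 0.23 (adjusted p = 0.0869), also with no overlap. Ccne1, cyclin E1, lay between 1005 and 1372 on all 22 arrays, and its 72 h change was 0.03, with an interval from -0.26 to 0.33. Ccnd2, cyclin D2, ranged from 24.6 to 352 and had -0.04 at 72 h, with a wide interval from -1.49 to 1.40.

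Among the genes that license and start replication, 5 of 7 filtered members rose at 72 h and 1 rose at 24 h. Without the filter the counts were 5 and 1 of 8. Of all filtered genes, 9.85% rose at 72 h and 6.20% at 24 h. All 7 had injury arrays above both sham arrays at 72 h, beside 18.6% of all genes without the filter. Mcm5, a subunit of the helicase ring, had 1158, 1041 and 1102 at 72 h after injury, against 502 and 415 after sham surgery. The injury values were close to each other, and the change was 1.27 ± 0.20 (adjusted p = 0.000158). At 24 h Mcm5 had 661, 924 and 608 after injury, against 379 and 379 after sham surgery (0.92 ± 0.20, adjusted p = 0.00409). A second Mcm5 probe set gave -1.36 ± 0.76 at 24 h (adjusted p = 0.376) and 0.79 ± 0.76 at 72 h (adjusted p = 0.641), so the probe sets differed in direction at 24 h. The mean of both missed the threshold at 72 h (1.03, adjusted p = 0.111). The 24 h call was also lost without sham 1d (adjusted p = 0.0505).

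Mcm7, another ring subunit, had 473, 558 and 591 at 72 h after injury, against 260 and 167 after sham surgery (1.37 ± 0.25, adjusted p = 0.000861). Mcm4 had 576, 477 and 498 after injury, against 297 and 115 after sham surgery (1.48 ± 0.29, adjusted p = 0.00168). The second Mcm4 sham array, 1d, was low, and without it the change was 0.80 (adjusted p = 0.0846). Cdc45, which joins the ring at firing origins, had 350, 375 and 354 after injury, against 70.5 and 168 after sham surgery (1.72 ± 0.42, adjusted p = 0.00864). Its low sham array was 1c, and without it the change was 1.10 (adjusted p = 0.123). Mcm3 had 715, 826 and 769 after injury, against 452 and 400 after sham surgery (0.85 ± 0.26, adjusted p = 0.0315). Its call was lost with any 1 of the 5 arrays left out (adjusted p from 0.0518 to 0.201), with averaged sham arrays (0.177) and with the title letter as a block (0.140). A second Mcm3 probe set gave larger changes, 1.33 ± 0.37 at 24 h (adjusted p = 0.0463) and 1.74 ± 0.37 at 72 h (adjusted p = 0.00749).

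Mcm2 and Cdc6, the loading factor, were not called at 72 h, although their groups did not overlap. Mcm2 had 557, 641 and 561 after injury, against 318 and 277 after sham surgery (0.98 ± 0.40, adjusted p = 0.108), and Cdc6 had 0.70 ± 0.37 (adjusted p = 0.229). Mcm6 stayed at or near the floor, with 3.37 to 130 over the 22 mouse arrays. It was measured without the filter only (0.79 ± 0.74, adjusted p = 0.604), with 1 injury and 1 sham array at the floor at 72 h.

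Among the genes of DNA and nucleotide synthesis, both subunit genes of ribonucleotide reductase, the enzyme that makes deoxyribonucleotides, rose at 72 h. Rrm2, the small subunit, had 493, 389 and 522 on injury arrays, against 98.1 and 80.4 on sham arrays. Its naive values, 87.8 and 85.3, were in the sham range, and the change was 2.39 ± 0.39 (5.23-fold, adjusted p = 0.000256). At 24 h Rrm2 had 196, 188 and 214 after injury, against 133 and 80.9 after sham surgery, which was not called (0.94 ± 0.39, adjusted p = 0.141). Rrm1, the large subunit, had 268, 322 and 313 at 72 h, against 70.5 and 68.4 (2.11 ± 0.48, adjusted p = 0.00506). Its 24 h values of 257, 240 and 266, against 82.1 and 88.7, gave 1.57 ± 0.48 (adjusted p = 0.0415). That call was lost without any 1 of the 5 arrays (adjusted p from 0.0605 to 0.179) and without the filter (adjusted p = 0.0569). A dimmer second Rrm1 probe set, mostly at the floor, gave 0.63 ± 0.70 at 72 h.

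Pcna, the sliding clamp of replication and repair, was called at 24 h and not at 72 h. It had 2500, 1702 and 1848 at 24 h after injury, against 1201 and 1240 after sham surgery (0.70 ± 0.18, adjusted p = 0.0153). The injury array with 2500 is replicate 1, and without it the change was 0.54 (adjusted p = 0.0732). Without sham 1c or 1d the adjusted p was 0.107 or 0.0977. At 72 h it had 1819, 1223 and 1513, against 1421 and 1145, so the groups overlapped (0.23, interval from -0.14 to 0.61). The effect at 72 h minus that at 24 h, -0.47 ± 0.25, was not called (adjusted p = 0.528). Tk1, thymidine kinase 1, was highest on the 72 h injury arrays, at 950, 756 and 979, against 180 and 484. Its uninjured values ranged widely, and it was not called (1.59 ± 0.70, adjusted p = 0.143). A second Tk1 probe set had -1.14 ± 1.04. Fen1, the flap endonuclease, Lig1, a DNA ligase, and Pola1, the polymerase alpha catalytic subunit, had 0.41, 0.49 and 0.66 at 72 h, with adjusted p from 0.228 to 0.584. Prim1, the primase small subunit, lay under the filter on every array (13.2 to 127) and had 0.91 ± 0.54 (adjusted p = 0.348).

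Of 9 filtered genes of G2 and mitosis, 6 rose at 72 h and 1 rose at 24 h, beside 9.85% and 6.20% of all filtered genes. The 9 include Cdk1, Aurka, Birc5 and Aurkb, which passed the filter only through the injury arrays at 72 h, and the first 3 of these were called. Without the filter, 6 of 10 rose at 72 h and 1 of 10 at 24 h, beside 7.48% and 4.71% of all genes. Cdk1, the mitotic kinase, had 716, 354 and 708 on injury arrays at 72 h, against 35.2 and 37.5 on sham arrays and 30.1 and 39.3 on naive arrays. This was a 15.5-fold difference (3.96 ± 0.68, adjusted p = 0.000409) between groups that lay far apart. At 24 h Cdk1 had 61.2, 293 and 194 after injury, and both sham arrays were at the floor, so the difference was at least 6.30-fold (2.65 ± 0.68, adjusted p = 0.0153). The 24 h call was lost without injury 2, injury 3, sham 1c or sham 1d (adjusted p from 0.0552 to 0.107), and with the floor at the 25th percentile (1.06, adjusted p = 0.118). At 8 h its values were 21.4, 20.8 and 33.5, against 30.9 and 20.2, all close to the floor.

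Cdc20, which activates the anaphase-promoting complex, had 1044, 648 and 909 at 72 h after injury, against 332 and 273 after sham surgery (1.50 ± 0.22, adjusted p = 7.28e-05). Ccnb2, cyclin B2, had 1730, 1168 and 1730, against 807 and 529 (1.22 ± 0.20, adjusted p = 0.000326). Neither was called at 24 h, when Ccnb2 had 0.07 ± 0.20 and Cdc20 had 0.40 ± 0.22. Birc5, survivin, a subunit of the chromosomal passenger complex, had 296, 552 and 411 at 72 h, against 102 and 119 (1.88 ± 0.42, adjusted p = 0.00409), a call that was lost with averaged sham arrays (adjusted p = 0.0552). Aurka, Aurora kinase A, had 253, 218 and 306, against 99.7 and 75.5 (1.56 ± 0.47, adjusted p = 0.0277). Its call was lost without injury 1, injury 3 or sham 1d (adjusted p 0.0663, 0.0973 and 0.203), with averaged sham arrays (0.0971) and with the title letter as a block (0.196). Ccna2, cyclin A2, had 959, 891 and 973, against 455 and 629 (0.81 ± 0.27, adjusted p = 0.044). That call was lost without any 1 of the 5 arrays (adjusted p from 0.0605 to 0.239), without the filter (0.0681), with averaged sham arrays (0.122) and with the title letter as a block (0.179).

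Bub1, a spindle checkpoint kinase, was under the filter and rose in the fit without it, with 133, 94.9 and 152 at 72 h, against 13.6 and 41.8, the first of them at the floor (1.97 ± 0.43, adjusted p = 0.00659). Its other 2 probe sets were mostly at the floor, at 0.43 ± 0.27 and 0.00 ± 0.06. Aurkb, the kinase of the passenger complex, had 91.6, 241 and 236, against 69.6 and 57.7, and was not called (1.45 ± 0.64, adjusted p = 0.143). Mad2l1, a checkpoint protein, had 0.17 with an interval from -0.36 to 0.70. Plk1, Polo-like kinase 1, was the 1 member of 35 with every injury array below both sham arrays at 72 h, beside 15.6% of all genes: 528, 761 and 667, against 1032 and 1036 (-0.68 ± 0.24, adjusted p = 0.0597). Its other probe sets pointed the opposite way at 72 h, at 0.85 ± 0.35 (adjusted p = 0.161) and 1.53 ± 0.56 (adjusted p = 0.109), so no direction can be given for Plk1.

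All 3 chromatin members depended on which probe set or filter was used. Top2a, topoisomerase II alpha, which untangles chromosomes, was under the filter. It had 291, 184 and 320 at 72 h after injury, and both sham arrays were at the floor, so it was at least 10.7-fold higher (3.42 ± 0.50, adjusted p = 0.000295, no filter). At 24 h it had 105, 115 and 31.0 after injury and sham arrays at the floor (1.59 ± 0.50, adjusted p = 0.0684). Hmgb2, a chromatin protein of dividing cells, had 154, 118 and 138 at 72 h, against 43.0 and 10.1, the second of them at the floor (2.08 ± 0.37, adjusted p = 0.00139, no filter). It also rose at 24 h, with 102, 96.5 and 166, against 27.8 and 52.2 (1.63 ± 0.37, adjusted p = 0.0118). Mki67, the gene of the Ki-67 proliferation antigen, was represented by its brighter probe set, which had 348, 264 and 269 at 72 h, against 292 and 220 (0.20 ± 0.35, adjusted p = 0.778). The dimmer Mki67 probe set had 531, 261 and 498 at 72 h, and both sham and both naive arrays were at the floor. Its change was at least 4.09 on the log2 scale (adjusted p = 7.45e-06), and at least 2.16 at 24 h (adjusted p = 0.00293), where it had 91.8, 93.6 and 145. The 2 Mki67 probe sets therefore gave different answers, and the one chosen by the rule of highest mean was the one that showed no change past the threshold.

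**Figure D2:**
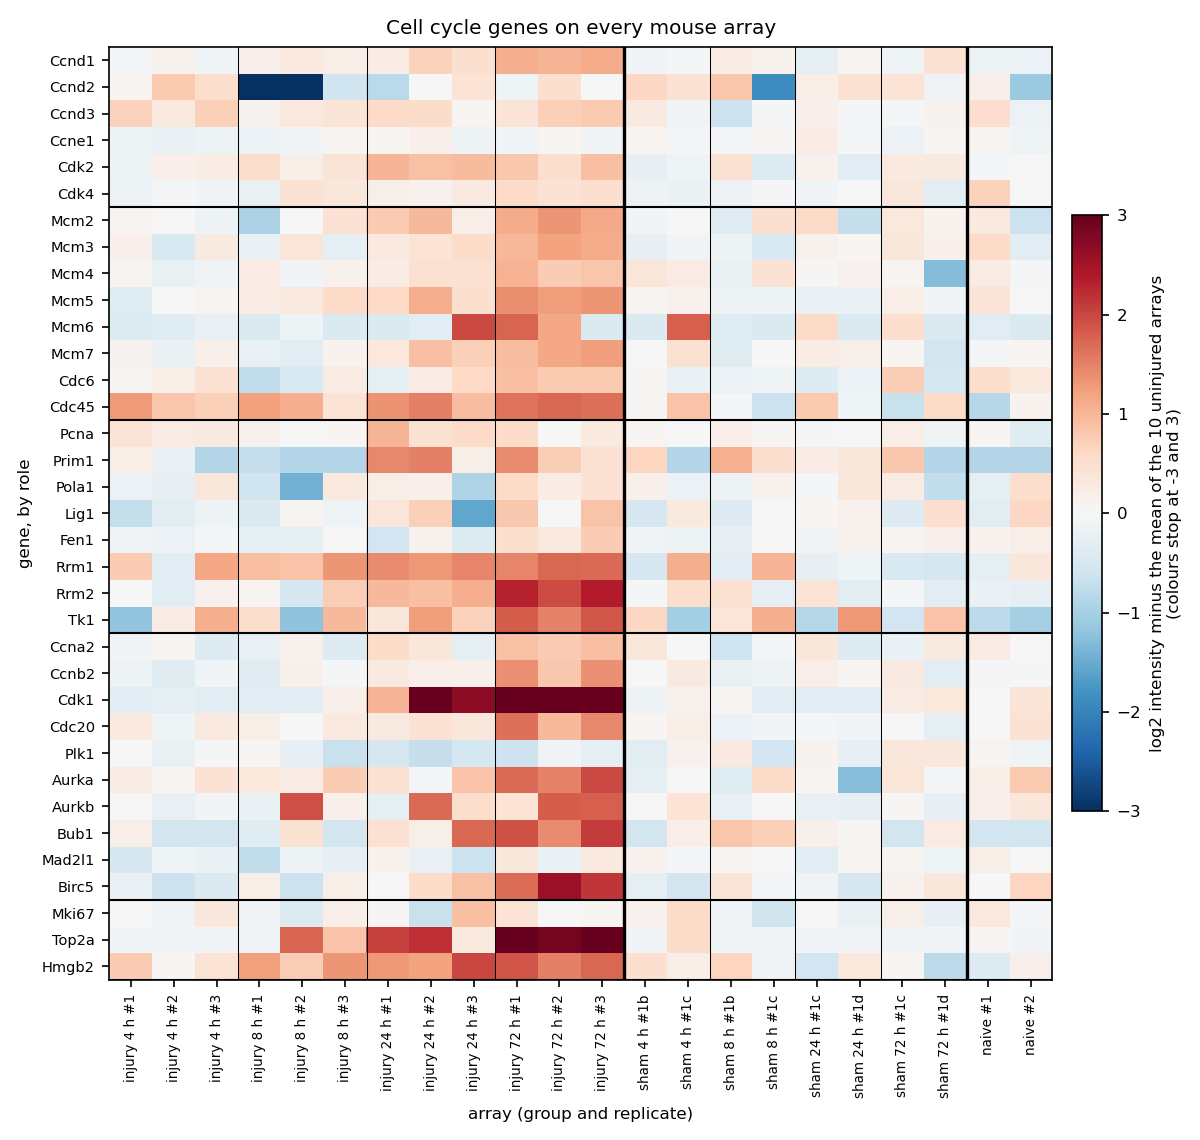
Each row is a member and each column a mouse array, coloured by log2 intensity minus the mean of the 10 uninjured arrays, with colours stopping at -3 and 3. The 3 columns of injury at 72 h are the reddest for Cdk1, Rrm2 and Top2a, and the row of Ccne1 is pale throughout.

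The injury effect itself grew between 4 h and 72 h for 8 of 30 members, beside 3.60% of all genes with a larger effect at 72 h. They were Ccnd1 (0.85 ± 0.23), Mcm4 (1.87 ± 0.42), Mcm5 (1.48 ± 0.28), Mcm7 (1.58 ± 0.36), Rrm2 (2.70 ± 0.55), Ccnb2 (1.55 ± 0.29), Cdk1 (4.26 ± 0.96) and Cdc20 (1.47 ± 0.30), where the values are differences of log2 changes. Without the filter the count was 11 of 35, beside 2.76%. With the filter it was 5 without sham 1c of 4 h. With averaged sham arrays it was 2, with Ccnd1, Cdc20, Cdk1, Mcm5, Mcm7 and Rrm2 lost. The difference for Ccnd1 was called in 6 of 16 alternatives, with an adjusted p of up to 0.566. At 4 h the injury titles carry the letter a and the sham titles b or c. Letter and injury cannot be told apart at 4 h, and this limits the comparison of 72 h with 4 h. From 24 h to 72 h, 0 members had a change of effect that was called, beside 0.283% of all genes, and 6 had an unadjusted p under 0.05. Those with the smallest p were Ccnb2 (1.14 ± 0.29, adjusted p = 0.124), Cdc20 (1.10 ± 0.30, adjusted p = 0.148) and Mcm4 (1.18 ± 0.42, adjusted p = 0.286). Without sham 1c of 72 h, 3 members (Ccnb2, Cdc20 and Mcm4) were called, and without injury 2 of 72 h, 1 (Ccnb2). Sham surgery against naive cortex called 0 of 30 members, beside 0.110% of all genes, and 1 had an unadjusted p under 0.05.

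**Figure D3:**
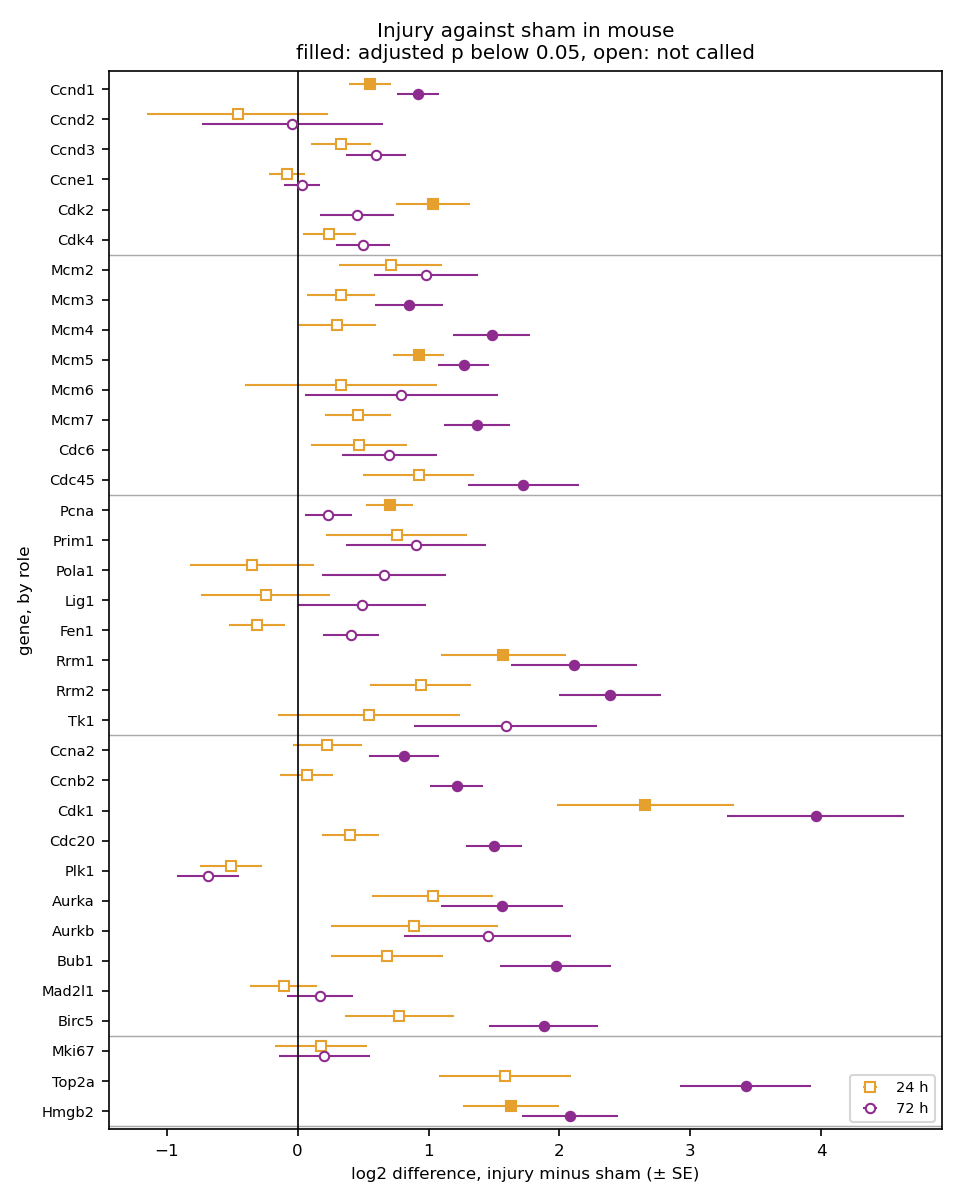
Log2 change, injury minus sham, of each mouse member at 24 h and 72 h, with bars of 1 standard error. Filled markers were called and open markers were not. Cdk1 (3.96) and Top2a (3.42, a lower bound because both sham arrays were at the floor) lie far to the right at 72 h.

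Related genes that are not members were read from further lists. Of 27 filtered genes of mitosis, 10 rose at 72 h and 0 fell, beside 9.85% of all genes that rose, with a median of 0.92 beside -0.01 over all filtered genes. Cks1b, a small subunit of cyclin-dependent kinases, had 3.85 ± 0.57 (adjusted p = 0.000109), and Smc4, of the condensin complex, had 1.33 ± 0.26 (adjusted p = 0.0014). The mitotic kinesin gene Kif20a had 2.49 ± 0.56 (adjusted p = 0.00485), and Cdca8, of the passenger complex, had 0.98 ± 0.23 (adjusted p = 0.00685). Of 24 further replication genes, 3 rose and 0 fell, a share near that 9.85%, with a median of 0.25. These were Uhrf1, which guides maintenance DNA methylation (3.33 ± 0.63, adjusted p = 0.00108), Cdt1, which loads the helicase with Cdc6 (0.77 ± 0.18, adjusted p = 0.00768), and Rpa1, of the single-strand binding protein (0.71 ± 0.24, adjusted p = 0.0479).

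At 72 h, 9.85% of all filtered genes rose, and 2 of 5 inhibitors of cyclin-dependent kinases did. They were Cdkn1a (p21, 1.57 ± 0.22, adjusted p = 6.61e-05) and Cdkn2c (0.81 ± 0.20, adjusted p = 0.00985). Cdkn1a had already risen at 8 h (2.36 ± 0.22, adjusted p = 1.34e-06), when no member was called. Of 7 genes of E2F and pocket proteins and other G1 control, 0 were called at 72 h and 1 had an unadjusted p under 0.05. The 4 with the smallest adjusted p were E2f1 (-0.53 ± 0.24, adjusted p = 0.163), Rb1 (0.40 ± 0.25, adjusted p = 0.332), Cdk7 (-0.31 ± 0.23, adjusted p = 0.417) and Mycn (-0.48 ± 0.53, adjusted p = 0.628). Of 9 other chromatin and tubulin genes, 1 rose beside that 9.85%, the histone methyltransferase gene Ezh2 (0.79 ± 0.26, adjusted p = 0.0444).

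Cell type markers moved with the members at 72 h in mouse, and some were already called before any member was. At 4 h, 0.865% of all filtered genes were called in either direction. The share of all filtered genes that rose was 4.91% at 8 h, 6.20% at 24 h and 9.85% at 72 h. Of 11 filtered markers of microglia and macrophages, 10 rose at 72 h. Their summed intensity over 12 genes was then 25436 to 34831 on injury arrays, against 7313 to 8351 on sham arrays. Lgals3 was at the floor on both sham arrays. At 4 h, 2 of the 11 had risen, with sums of 11020 to 13828 against 8500 to 8725. At 8 h, 4 had risen, with sums of 12611 to 15306 against 7300 to 7905. At 24 h, 6 had risen, with sums of 14642 to 15031 against 7182 to 7437. Of 6 fibroblast and matrix markers, 5 rose, with sums of 9632 to 11272 against 5904 to 6995. Astrocyte markers (3 of 7 rose) summed to 27238 to 30194 against 15026 to 16467 at 72 h, and to 17408 to 26671 against 14821 to 14933 at 24 h (2 rose and 1 fell). At 72 h endothelial and pericyte markers (3 of 8 rose) summed to 6579 to 7425 against 3296 to 3891, and oligodendrocyte markers (3 of 5 rose) to 15188 to 17084 against 11959 to 14208. Neutrophil markers (1 of 4 rose) summed to 1263 to 1377 against 890 to 1048. No neuronal (0 of 7), lymphocyte (0 of 2) or red cell (0 of 3) marker was called, with an unadjusted p under 0.05 for 1, 0 and 0 of them. Neuronal markers, which identify cortex, summed to 33405 to 37389 against 26783 to 46494. Cd3g and Cd8a, which define T cells, were at the floor on all injury and sham arrays at 72 h. The part of these cell types in the members' changes was not tested.

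In injured rat cortex, members were called at 72 h alone. At that time 4 of 19 filtered members rose and 0 fell, beside 2.10% of all genes that rose and 0.660% that fell. Without the filter 4 of 22 rose, beside 1.65% of 4736 genes, and the change was positive for 21 of the 22. Without the 4 arrays that stood apart, 6 were called, with Cdk4 and Pcna added. The count was 1 without injury 3, 2 without sham 1 and 1 without sham 2, so single arrays set it. Injury replicate 2 of this time had the next lowest correlation after the 4 arrays that stood apart (0.864), and 3 members were called without it.

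Rat Top2a had 799, 1338 and 1811 at 72 h after injury, against 161 and 156 after sham surgery. Naive rats had 231, 219 and 172, and the change was 2.98 ± 0.47 (7.88-fold, adjusted p = 0.00017). Its other 2 probe sets had 2.14 ± 0.77 (adjusted p = 0.158) and 0.10 ± 0.70 (adjusted p = 0.989), and the mean of all 3 missed the threshold (1.74, adjusted p = 0.0594). Rat Cdk1 had 477, 451 and 959 after injury, against 104 and 28.8 after sham surgery, the lower of them at the floor (3.35 ± 0.68, adjusted p = 0.00523). It lost its call without injury 3 (adjusted p = 0.0612) or sham 2 (adjusted p = 0.214). Rat Mcm6 had 817, 806 and 1654 after injury, against 350 and 317 after sham surgery (1.63 ± 0.36, adjusted p = 0.0104). It lost its call without injury 3, sham 1 or sham 2 (adjusted p from 0.107 to 0.152). Its other probe sets had 1.56 ± 0.64 and 1.24 ± 0.65, neither called. Rat Ccnd1 had 950, 1439 and 3089 after injury, against 605 and 576 after sham surgery (1.45 ± 0.38, adjusted p = 0.0328). Injury replicate 3 held the highest value for all 4 genes. The Ccnd1 call was lost without injury 2, injury 3, sham 1 or sham 2 (adjusted p from 0.0673 to 0.289), and 1 of its 4 other probe sets had a change of -0.14 ± 0.58 (adjusted p = 0.963).

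**Figure D4:**
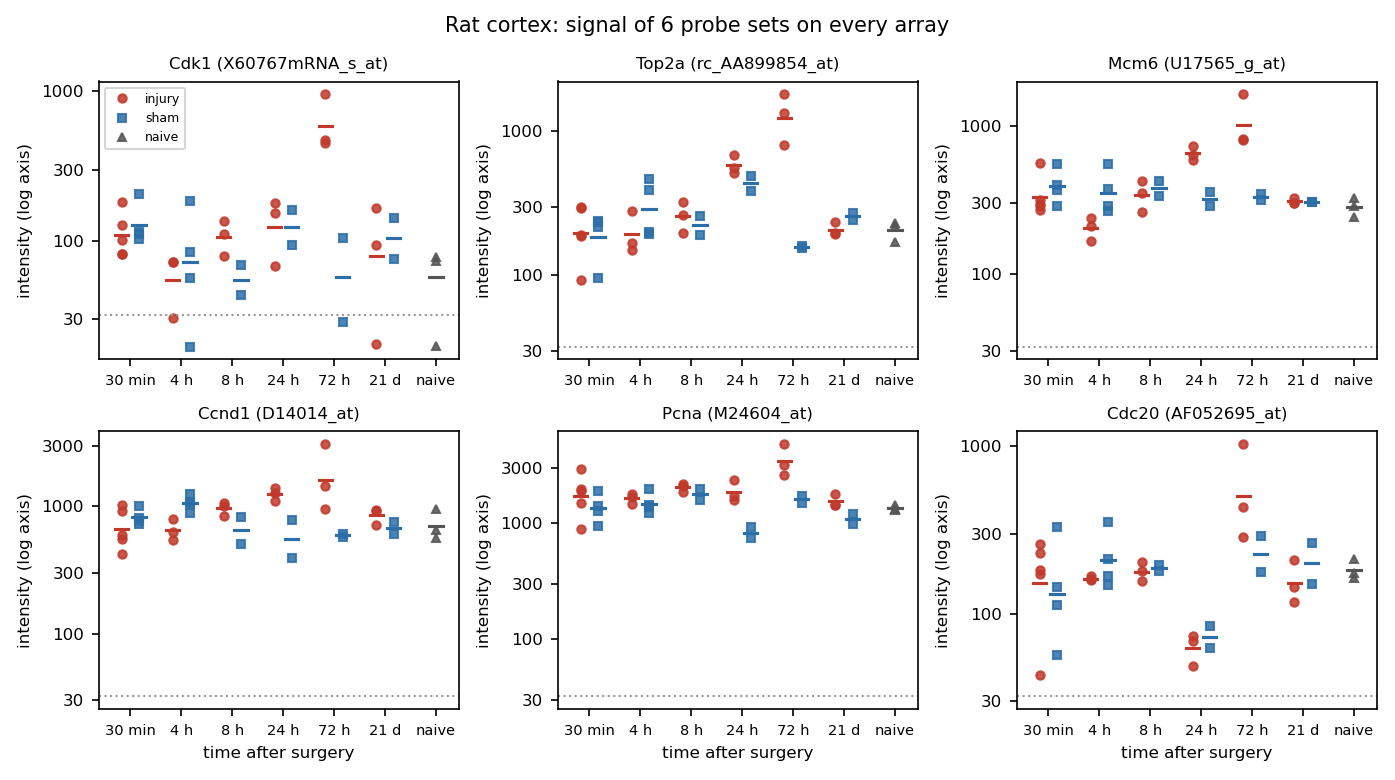
Array intensities (log axis) of selected members in rat cortex by time. Dots are arrays, short lines are means of the floored log2 values and the dotted line is the floor. At 72 h the injury arrays of Top2a (799 to 1811) stand above both sham arrays (161 and 156).

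The other rat members did not pass the test at 72 h, and Cdk2 was the 1 with a change under 0. Of the 19, 14 had every injury array above both sham arrays, beside 19.0% of all genes. Pcna had 3188, 2594 and 4820 after injury, against 1717 and 1500 after sham surgery (1.09 ± 0.33, adjusted p = 0.0736). Mcm5 had 141, 599 and 351, against 113 and 115 (1.44 ± 0.71, adjusted p = 0.344), so the injured rats differed widely and all stood above the sham rats. Mcm7 had 671, 807 and 1284, against 477 and 640 (0.68 ± 0.47, adjusted p = 0.552). Cdc20 had 430, 287 and 1028, against 178 and 291, so its groups overlapped (1.14 ± 0.62, adjusted p = 0.396). Changes between 0.88 and 1.20 that were not called were also seen for Ccnd2 (0.97), Cdk4 (1.02), Ccnb1 (1.06), Plk1 (0.88), Aurkb (1.10) and Hmgb2 (1.20). Ccnd3, Ccne1, Prim1 and Fen1 had 0.31 to 0.54. Bub1b, a checkpoint kinase, had 0.01 with an interval from -1.36 to 1.38, and its other probe set had 2.14 ± 0.72 (adjusted p = 0.12). Under the filter, Cdk2 had -0.27 ± 0.65, Pola1 had 0.05 ± 0.20 with both sham arrays at the floor, and Tyms, thymidylate synthase, had 0.84 ± 0.70.

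At the other rat times 0 of 19 members were called, beside 0.0244% of all genes at 30 min, 4.99% at 4 h, 0.709% at 8 h, 0.269% at 24 h and 0% at 21 d. Unadjusted p was under 0.05 for 1, 7, 0, 3 and 0 members at these times. Without the 4 arrays that stood apart, the counts were 0 at 30 min, 4 h, 8 h and 21 d and 1 at 24 h. At 4 h the median was -0.57, beside -0.12 over all genes, and 2 of the 4 sham arrays of that time were among those that stood apart. Without sham 1 of 4 h, Cdk4 and Mcm6 were called, and without sham 2, Ccnd2, Cdk4 and Mcm6. In both of these fits most of the remaining sham arrays were ones that stood apart. The share of all genes called in them is not given here. All 5 rat arrays of 24 h were among the next lowest in correlation (0.865 to 0.877), and the part of this in the 24 h values was not tested. At that time Ccnd1 had 1280, 1403 and 1092 after injury, against 391 and 781 after sham surgery (1.18 ± 0.38, adjusted p = 0.332). Pcna had 1594, 1715 and 2346, against 927 and 743 (1.16 ± 0.33, adjusted p = 0.191). It was the 1 member called without the 4 arrays that stood apart. The sham values of 391 for Ccnd1 and 743 for Pcna were the lowest of all 39 rat arrays, so low sham values enter both differences. A second Pcna probe set had a mean of 434 on these sham arrays, 933 on naive arrays and 1107 on the injury arrays of 24 h. At 21 d the median change was 0.04, and Top2a had 234, 197 and 193 after injury, against 244 and 270 after sham surgery. Sham surgery against naive rats called 0 of 19, beside 0.0244% of all genes, and 2 had an unadjusted p under 0.05. Title letter cannot be told apart from injury in rat at 4 h, or from surgery in sham against naive rats.

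Of 7 further rat mitosis genes that passed the filter, 1 rose at 72 h, Racgap1, which acts in cytokinesis (1.53 ± 0.36, adjusted p = 0.018). The share of all filtered rat genes that rose at 72 h was 2.10%. None of 9 replication genes, 3 inhibitors, 5 genes of G1 control or 7 other chromatin genes was called, with an unadjusted p under 0.05 for 0, 0, 0 and 2 of them. Markers of microglia and macrophages (3 of 6 rose) summed to 18092 to 33895 on rat injury arrays at 72 h, against 9252 to 10030 on sham arrays. Fibroblast and matrix markers (2 of 6 rose) summed to 8271 to 17098, against 3818 to 4738. Of 7 astrocyte markers, Vim rose, and of 6 neuronal markers, Nefm fell (-1.96 ± 0.43, adjusted p = 0.00956), with neuronal sums of 6530 to 15676 against 26338 to 27295. Slc17a7, a neuronal marker, was at the floor on all of these arrays. No marker was called among 7 of oligodendrocytes, 2 of neutrophils, 5 of lymphocytes, 4 of endothelium and 2 of red cells, with an unadjusted p under 0.05 for 1, 1, 2, 1 and 0 of them. Their part in the rat changes was not tested.

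Promoters are shown for the members that rose in rat and had an entry, Mcm6, Cdk1 and Top2a, and for Mcm5 and Ccnb2, which rose in mouse and hold the same letters. They are RefSeq sequences of the rat build GRCr8, 250 bases before to 50 after the start of the gene, 5′ to 3′ on the strand of the gene. Of the 38 members 31 had an entry, and Ccnd1, Ccnd2, Mcm4, Cdc6, Rrm2, Ccna2 and Aurkb did not. Capitals mark matches on either strand to E2F letters (TTTCCCGC, TTTGGCGC, TTTGCCGC or TTTCGCGC), to the cell cycle homology region letters of mitotic promoters (TTTGAA, or TTCAAA on the other strand) and to CCAAT (or ATTGG).
Mcm6, chr13:42404303-42404602, minus strand: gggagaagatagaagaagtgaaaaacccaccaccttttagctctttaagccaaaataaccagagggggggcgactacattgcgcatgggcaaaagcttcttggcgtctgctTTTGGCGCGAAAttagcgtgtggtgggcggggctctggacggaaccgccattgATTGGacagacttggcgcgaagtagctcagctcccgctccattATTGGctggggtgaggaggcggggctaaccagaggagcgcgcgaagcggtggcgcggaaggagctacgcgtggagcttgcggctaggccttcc
Mcm5, chr19:13488563-13488862, plus strand: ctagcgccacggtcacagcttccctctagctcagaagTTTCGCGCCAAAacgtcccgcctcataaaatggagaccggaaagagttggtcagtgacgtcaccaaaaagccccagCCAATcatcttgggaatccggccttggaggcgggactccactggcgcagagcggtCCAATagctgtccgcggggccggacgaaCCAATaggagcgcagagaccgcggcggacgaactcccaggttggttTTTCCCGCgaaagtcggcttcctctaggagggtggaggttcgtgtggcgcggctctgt
Cdk1, chr20:19265043-19265342, plus strand: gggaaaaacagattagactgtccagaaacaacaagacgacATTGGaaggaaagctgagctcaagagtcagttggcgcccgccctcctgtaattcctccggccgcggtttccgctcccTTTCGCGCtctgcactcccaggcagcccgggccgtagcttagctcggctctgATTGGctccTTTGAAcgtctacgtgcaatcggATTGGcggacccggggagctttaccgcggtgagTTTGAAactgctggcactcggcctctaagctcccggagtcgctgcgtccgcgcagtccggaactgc
Ccnb2, chr8:79981609-79981908, minus strand: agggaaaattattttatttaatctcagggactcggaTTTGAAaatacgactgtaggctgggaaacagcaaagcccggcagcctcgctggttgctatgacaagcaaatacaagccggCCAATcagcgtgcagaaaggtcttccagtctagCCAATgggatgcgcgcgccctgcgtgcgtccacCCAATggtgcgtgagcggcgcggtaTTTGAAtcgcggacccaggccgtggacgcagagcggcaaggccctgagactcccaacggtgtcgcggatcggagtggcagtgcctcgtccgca
Top2a, chr10:84473044-84473343, minus strand: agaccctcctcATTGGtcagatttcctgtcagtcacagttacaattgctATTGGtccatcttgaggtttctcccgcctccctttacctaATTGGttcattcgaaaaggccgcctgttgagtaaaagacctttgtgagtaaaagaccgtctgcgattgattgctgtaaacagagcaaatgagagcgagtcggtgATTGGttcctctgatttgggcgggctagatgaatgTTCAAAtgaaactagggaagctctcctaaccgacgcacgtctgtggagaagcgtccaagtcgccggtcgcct
The E2F letters stood in 9 of the 31 member promoters (29.0%), beside 2.14% of all 33469 rat promoters of that length, and in 5 of the 6 licensing promoters. In the promoters of Mcm6 and Mcm5, 2 E2F matches on opposite strands overlap and are printed as 1 run of capitals. TTTGAA stood in 11 of 31 (35.5%), beside 18.3% of all promoters, and in 7 of the 10 promoters of mitosis genes. CCAAT stood in 20 of 31 (64.5%), beside 37.5%. Both together stood in 8 of 31 (25.8%), beside 7.41%, namely in 5 of 10 mitosis promoters, all 3 chromatin promoters and 0 of the others. Such matches describe letters in these windows and were not set against binding.

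Set side by side at 72 h, mouse and rat had called members in common. Ccnd1 rose by 0.92 ± 0.16 in mouse and 1.45 ± 0.38 in rat, and Cdk1 by 3.96 ± 0.68 and 3.35 ± 0.68. Top2a was at least 10.7-fold higher in mouse without the filter and 7.88-fold higher in rat. Rat Ccnd1, Cdk1 and Top2a were called in 6, 10 and 12 of 13 alternatives. With the mean of all probe sets, Ccnd1 missed the threshold in both species, and Top2a missed it in rat (adjusted p = 0.0594). Cdk1 passed the filter only through the injury arrays at 72 h in both species. Mcm6, called in rat, was near the floor in mouse, and Mcm5, Mcm7 and Cdc20, called in mouse, had 1.44, 0.68 and 1.14 in rat with standard errors of 0.71, 0.47 and 0.62. Injury model, strain, pooling and array differ between the species, so the difference was not tested.

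**Figure D5:**
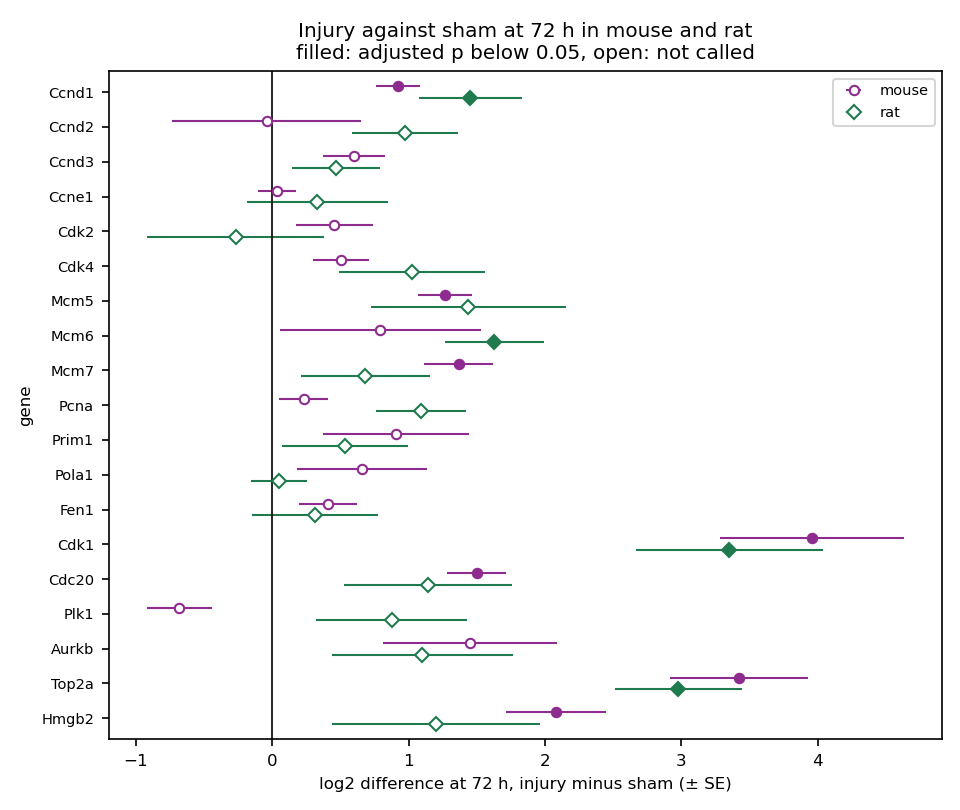
Log2 change at 72 h, injury minus sham, of the members on both arrays, in mouse and in rat, with bars of 1 standard error. Filled markers were called and open markers were not. Cdk1 is far to the right in both species (3.96 in mouse and 3.35 in rat).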

How the data were processed

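The deposited values were 1 linear intensity per probe set and array, and the software that made them is not given in the sources used here. Arrays were on a common scale: with 2% cut from both tails, the mean was 800.3 to 800.5 on mouse arrays and 800.6 to 801.2 on rat arrays. Median intensities were 285 to 340 in mouse and 230 to 409 in rat, and the number of arrays limits the precision. Intensities were floored at the pooled 10th percentile and taken as log2. Control probe sets (66 mouse, 59 rat) and probe sets with several gene symbols (396 and 308) or none (1193 and 1426) were left out; names come from the platform annotation, which can be old. A gene passed the filter if 3 or more arrays exceeded the pooled 40th percentile, an intensity of 193 for mouse and 202 for rat, which left 6355 mouse and 4091 rat genes.

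Each species had 1 limma 3.58.1 model (R 4.3.3) with a mean per group, moderated variances with a trend, and 13 (mouse) or 26 (rat) residual degrees of freedom. P-values were two-sided, and limma's own test was used throughout. The members and all lists were chosen with earlier results of these data known. Every member is named. Members called in mouse or rat have the value on each array, and further lists give up to 4 genes with the smallest adjusted p at 72 h in mouse. Cdkn1a at 8 h and the genes at unadjusted p under 0.05 were picked out after their values were seen. In simulated data with known changes, the mouse 72 h comparison recovered 79% of log2 changes of 1 and 98% of changes of 2. The rat 72 h comparison recovered 14% and 69%. The simulated noise was made of deviations from the means of small groups, which are smaller than the real spread. These shares are therefore too high to stand for the power of the real comparisons. Alternatives were quantile normalization, no filter, a higher floor, averaging all probe sets per gene, the compared groups alone, all uninjured arrays as control, averaged mouse sham arrays, the title letter or replicate number as a block, leaving out each array, leaving out the 4 rat arrays, and each other probe set, which was added after seeing the data. Rat replicate numbers were checked for pairing: over 15 same-numbered injury and sham pairs the correlation of deviations was -0.41 to 0.36, and 4 were over 0.1. At 30 min the values were 0.36, 0.25, -0.41 and 0.36. Deviations were taken from group means, and in groups of 2 sham arrays they are exact opposites, so this check cannot decide on pairing. The main model did not pair samples, and the replicate number was used as a block in an alternative. Python 3.11.15 with matplotlib 3.10.9 drew the figures.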

Additional observations from a re-analysis of the deposited data

Results flagged for a closer look

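The injury effect at 72 h differed from that at 4 h in mouse, by a limma test of the difference itself, for 8 members. The difference of log2 changes was 0.85 for Ccnd1 (adjusted p = 0.0334), 1.87 for Mcm4 (adjusted p = 0.0107), 1.48 for Mcm5 (adjusted p = 0.00351) and 1.58 for Mcm7 (adjusted p = 0.0117). It was 2.70 for Rrm2 (adjusted p = 0.00579), 1.55 for Ccnb2 (adjusted p = 0.00299), 4.26 for Cdk1 (adjusted p = 0.0116) and 1.47 for Cdc20 (adjusted p = 0.00666). The difference for Ccnd1 was called in 6 of 16 alternatives, and that for Ccnb2 in all 16. Title letter and injury cannot be told apart at 4 h.

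In rat, 1 array of a 30 min group lay far from the others for 8 combinations of member and group. The 57 combinations tested also included the sham arrays of 4 h, where none was flagged. Members share arrays, so the 8 are not independent and cannot be set against a chance rate. Among injury arrays, Ccnd2 was lowest on replicate 3 (721), Cdk4 and Cdc20 were lowest on replicate 5 (208 and 42.9), and Mcm6 was highest on replicate 5 (566). Among sham arrays, Fen1 and Top2a were lowest on replicate 3 (106 and 96.2), Cdk1 was highest on replicate 3 (206), and Ccnb1 was highest on replicate 4 (1055). Injury replicate 5 and sham replicate 3 of 30 min are among the 4 rat arrays that stood apart, and they hold all of the 8 except Ccnd2 and Ccnb1. The other arrays that stood apart, sham replicates 3 and 4 of 4 h, lie in the same group. A search for 1 outlying array can miss both of them.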

How the results depend on the processing

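Of the 14 members called in mouse at 72 h, 6 (Ccnb2, Cdc20, Cdk1, Mcm7, Rrm1 and Rrm2) were called under all 13 alternatives planned for them, against 0 of the 6 called at 24 h and 0 of the 4 called in rat at 72 h. Of the 8 called for 72 h minus 4 h, 1 (Ccnb2) was called under all 16. With all uninjured arrays as control, mouse counts were 1 at 4 h, 1 at 8 h, 10 at 24 h and 22 at 72 h, and the rat 24 h count was 4. Shares of all genes called under the alternatives are not given here, so the counts in this paragraph cannot be set against other genes. With the compared groups alone, the mouse 24 h and rat 72 h counts were each 1. With averaged sham arrays the mouse 24 h count was 0, the 72 h count 10 and the 72 h minus 4 h count 2. With the title letter as a block the 24 h count was 3 and the 72 h count 12. This block could not be fitted for 4 h or 72 h minus 4 h, because injury and sham arrays of 4 h share no letter. It could also not be fitted for sham against naive. No letter block was fitted in rat. With the mean of all probe sets, the rat counts were 1 at 24 h and 2 at 72 h, and without the 4 rat arrays the 24 h count was 1. Leaving out 1 array gave 0 to 1 in mouse at 8 h, 0 to 3 at 24 h, 10 to 13 at 72 h, 0 to 3 for 72 h minus 24 h and 5 to 8 for 72 h minus 4 h. In rat it gave 0 to 3 at 4 h and 1 to 4 at 72 h; every other range was 0 to 0. Signs turned for Mcm5 at 24 h in mouse, with the mean of its probe sets (-0.22) and with the other probe set (-1.36), and for Ccnd1 at 72 h in rat with 1 other probe set (-0.14). With rat replicate number as a block, 5 members were called at 72 h (Pcna added) and 0 at every other time and for sham against naive. No paired mouse analysis was possible because the mouse sham arrays share only the number 1. The causes of these differences were not tested.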
